A study of Neurospora crassa with 112 samples.

Results

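Mycelial libraries of *Neurospora crassa* strains were chosen by their level of *con-6* (NCU08769), and the 27 with the highest level were compared with the 27 with the lowest. The remaining 54 libraries of the series were in neither group. The genes *con-6* and *eas* (NCU08457) are textbook markers of conidiation, and the labels record no observation of conidia. The groups are therefore called high and low *con-6* libraries.

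The series holds 112 strains named JW (72), D (10) or FGSC (30), each with 1 library of polyadenylated RNA from mycelia 16 h old, grown on cellophane over Bird medium. The high group held 15 JW strains and 12 D or FGSC strains, and the low group held 20 JW strains and 7 D or FGSC strains. The labels title every strain a wild Louisiana isolate. The paper lists FGSC 2489, which fell in the low group, as a laboratory strain that came from Louisiana. No group carried a treatment or an engineered allele. In 4 cases an FGSC and a D column were near-identical (D110 with FGSC 4448, D111 with FGSC 4449, D112 with FGSC 4453, D119 with FGSC 4500). Each pair was averaged to 1 library, and none of these libraries fell in either group. No strain was grown a second time, so differences between strains and between cultures cannot be told apart, and p-values measure the spread between libraries. In bulk RNA, more cells of a type and more RNA per cell cannot be told apart either.

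Conidiation is the asexual sporulation of this fungus. Aerial hyphae rise from the mycelium, bud into chains and release orange conidia that are coated with a water-repellent layer of the hydrophobin EAS. Blue light, sensed through the White Collar complex, and the circadian clock both promote the process, and many genes of the conidial programme are also induced by light. Carotenoids give the conidia their colour.

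Library totals recovered from the expression values were 7587021 to 29804014 reads on genes in the high libraries and 4506840 to 27557928 in the low libraries. The log2 total differed by 0.23 between the groups (two-sided permutation test, p = 0.205). The share of JW strains differed with p = 0.254 (two-sided Fisher's exact test). Values are RPKM, reads scaled by gene length and library total, and differences are on the log2(RPKM + 1) scale, high minus low, which understates the change of weakly expressed genes.

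The level of *con-6* chose the groups, so its values are a description with no test. It was 349 to 23670 RPKM in the high libraries (median 738 RPKM) and 23.9 to 94.0 RPKM in the low libraries (median 55.02 RPKM). Just inside the upper limit was JW242 with 349 RPKM, and just outside it was JW248 with 345 RPKM. At the lower limit JW222 had 94.0 RPKM, and D114, outside it, had 101 RPKM. The high libraries were spread unevenly. In 7 of them *con-6* was above 2000 RPKM, in 14 it was above 700 RPKM, and these bounds were chosen after the values were seen. Even the low libraries had 65 to 584 reads on *con-6*, so the transcript was detected in every library of both groups.

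**Figure D1:**
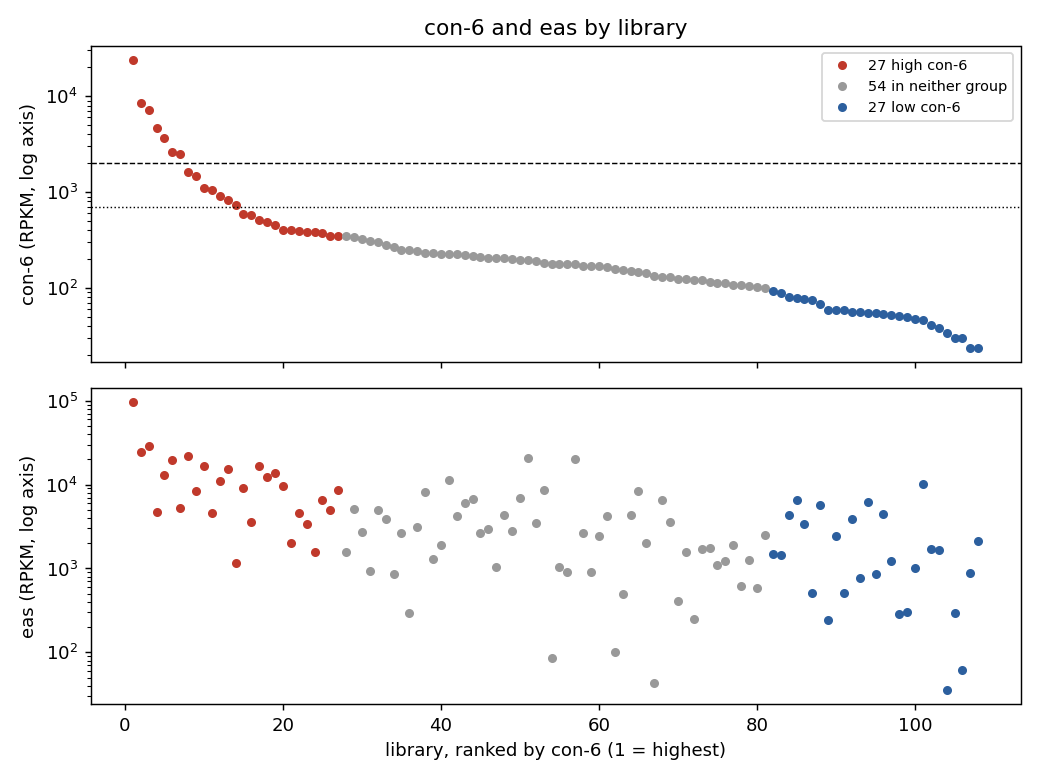
RPKM of con-6 (top) and eas (bottom), on log axes, in all libraries ranked by con-6, each point 1 library. The dashed and dotted lines mark 2000 and 700 RPKM. con-6 reaches 23670 RPKM at the high end and 23.9 RPKM at the low end, and the eas values of the 2 groups overlap.

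The 7984 genes tested other than *con-6* each averaged 1 RPKM or more over all libraries, the high group included. Among them 1133 (14.2%) passed an adjusted p of 0.05 with limma and Benjamini-Hochberg adjustment. Of these, 822 (10.3% of all tested) were higher in high *con-6* libraries and 311 (3.9%) were lower. The split depends on scaling: with median centring 468 were higher (5.86%) and 516 lower (6.46%), 12.3% in all, and with quantile normalization 423 were higher (5.3%) and 602 lower (7.54%), 12.8% in all. The median difference over all genes was 0.06. Without the 7 libraries above 2000 RPKM only 38 genes (0.476%) were called, 33 higher (0.413%) and 5 lower (0.0626%), and without the 14 above 700 RPKM 1 was called (NCU08770, 0.0125%). These fits kept 20 and 13 high libraries, and fewer libraries also give fewer calls. Without FGSC 4457 alone, the library with the highest *con-6*, 1008 genes were called. In no gene other than *con-6* were all 27 high libraries above every low library.

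**Figure D2:**
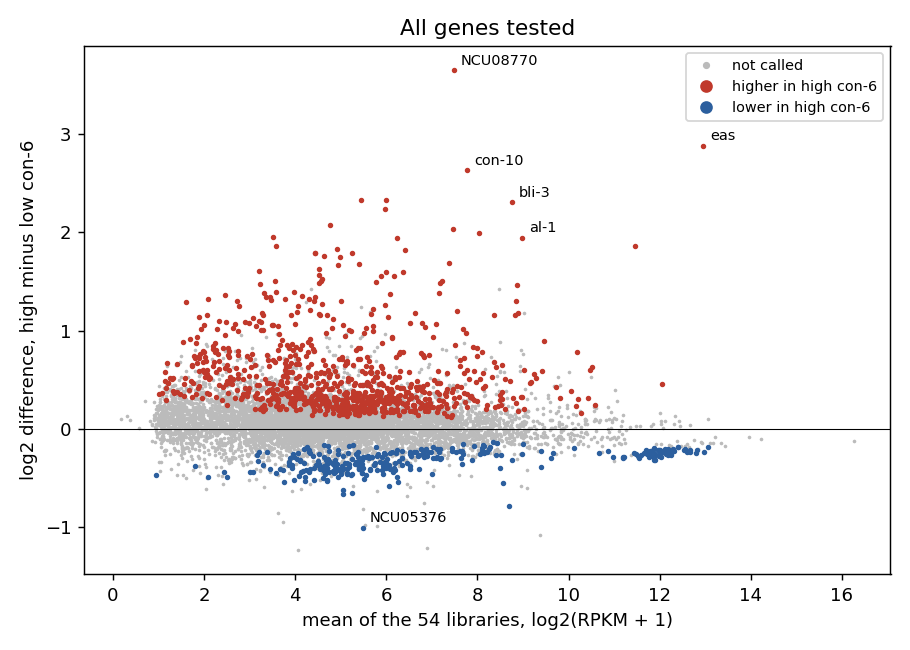
log2 difference, high minus low con-6, against the log2 mean RPKM + 1 of the 54 libraries, 1 point per gene. Red points (822) were higher and blue points (311) lower at an adjusted p of 0.05. The largest rise was 3.65 in NCU08770 and the largest called fall among genes averaging 5 RPKM or more was -1.01 in NCU05376.

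The largest rise was in NCU08770, a gene with no name in the gene table, which lies next to *con-6* on chromosome III of assembly NC12 without overlapping it. It had 5.58 to 3556 RPKM in the high libraries (median 36.2 RPKM) and 1.54 to 14.4 RPKM in the low libraries (median 4.06 RPKM). The difference was 3.65 ± 0.51 (SE, limma, adjusted p = 1.3e-05), and 22 of 27 high libraries were above every low library. Over all genes, 0.0626% had 14 or more high libraries above every low one, and 4.3% had 7 or more. It was the only gene called without the 14 highest libraries and also the only gene called within the JW strains (3.09, adjusted p = 0.0086). Its recovered coding length of 282 bases equals that of *con-6*, and whether the genes share sequence or reads was not tested.

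Conidial genes are the structural and protective products of spore formation. All 5 tested members of that list rose, with a median difference of 1.87. Over all genes 10.3% rose, with a median of 0.06. Of these members, *con-13* met the minimum mean of 1 RPKM through the high libraries. Its mean was 15.9 RPKM there and 0.51 RPKM in the low libraries, so the filter favoured its rise. The sixth member, *con-8*, was not analysed here. The hydrophobin gene *eas* had 1168 to 95463 RPKM in the high libraries (median 9015 RPKM) and 35.7 to 10212 RPKM in the low libraries (median 1448 RPKM). The groups overlapped, with 12 of 27 high libraries above every low library. The difference was 2.88 ± 0.46 (adjusted p = 0.00015), and *eas* was the only member called without the 7 highest libraries (2.53, adjusted p = 0.018).

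The conidiation genes *con-10* and *con-13* are neighbours on chromosome IV of NC12, like *con-6* named for their expression during conidiation. *con-10* had 2.34 to 3932 RPKM in the high libraries (median 39.6 RPKM) and 0.85 to 62.6 RPKM in the low libraries (median 6.20 RPKM), a difference of 2.63 ± 0.61 (adjusted p = 0.0041). *con-13* had 0.14 to 135 RPKM in the high libraries (median 0.94 RPKM) and 0 to 2.003 RPKM in the low libraries (median 0.37 RPKM), a difference of 1.61 ± 0.42 (adjusted p = 0.0089). The median of *con-13* was 51.7 RPKM in the 7 libraries above 2000 RPKM of *con-6*, 3.66 RPKM in those between 700 and 2000 RPKM, and 0.48 RPKM in those under 700 RPKM. The last value lies close to the median of the low libraries.

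The clock-controlled gene *ccg-1* rose by 1.87 ± 0.52 (adjusted p = 0.014). Its values of 123 to 14119 RPKM in the high libraries and 19.5 to 8707 RPKM in the low libraries overlapped widely, and only 3 high libraries were above every low one. The catalase gene *cat-1*, whose product is abundant in conidia, had 2.08 to 210 RPKM in the high libraries (median 19.8 RPKM) and 0.68 to 35.2 RPKM in the low libraries (median 5.61 RPKM). Its difference was 1.48 ± 0.38 (adjusted p = 0.0086).

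**Figure D3:**
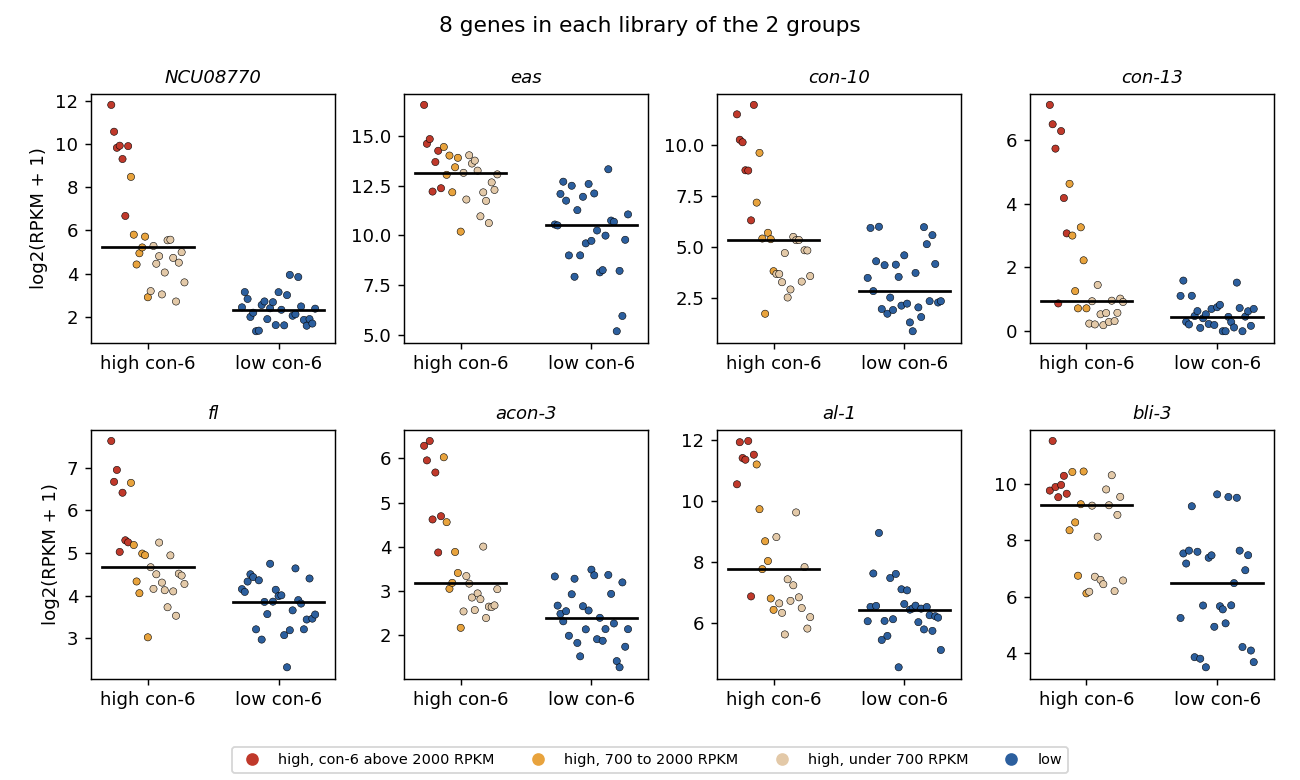
log2(RPKM + 1) of 8 genes in each of the 27 high (left) and 27 low (right) con-6 libraries, with colours for the level of con-6 and a bar at the median. Libraries above 2000 RPKM of con-6 hold most of the extreme values, as in con-13, where the high and low medians are 0.94 and 0.37 RPKM.

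Of 12 tested conidiation regulators 5 rose and 0 fell, beside 10.3% and 3.9% of all genes, and 7 were not called. The median difference of the list was 0.24. With quantile normalization 3 were higher and 1, *acon-2*, was lower (-0.32, adjusted p = 0.032), and with groups set by *eas* 2 were higher. *acon-2* differed by -0.16 (adjusted p = 0.38) without that scaling and is named after its values were seen. The gene *fl* (fluffy) encodes a zinc cluster transcription factor needed for conidiation. It had 7.15 to 196 RPKM in the high libraries (median 24.4 RPKM) and 4.01 to 25.9 RPKM in the low libraries (median 13.5 RPKM), a difference of 1.11 ± 0.23 (adjusted p = 0.0026). *acon-3*, required for the formation of conidiophores, had 3.49 to 83.1 RPKM in the high libraries and 1.42 to 10.2 RPKM in the low libraries, a difference of 1.32 ± 0.27 (adjusted p = 0.0026). The conidial separation genes *csp-1* (0.73, adjusted p = 0.045) and *csp-2* (0.71, adjusted p = 0.027) also rose. The velvet gene *ve-1* rose by 0.22 (adjusted p = 0.035). With median centring *ve-1* and *csp-1* were not called (adjusted p = 0.12 and 0.068).

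Carotenoid synthesis runs from geranylgeranyl diphosphate to neurosporaxanthin. Of its 5 genes 4 rose, beside 10.3% of all genes, with a median difference of 1.17. *al-3*, the geranylgeranyl diphosphate synthase, had 62.8 to 1029 RPKM in the high libraries (median 177 RPKM) and 68.1 to 189 RPKM in the low libraries (median 112 RPKM), and rose by 0.98 ± 0.23 (adjusted p = 0.0052). *al-2*, the phytoene synthase and cyclase, rose by 1.17 ± 0.29 (adjusted p = 0.0062). *al-1*, the phytoene dehydrogenase, had 48.7 to 3991 RPKM in the high libraries (median 218 RPKM) and 22.6 to 495 RPKM in the low libraries (median 86.2 RPKM), and rose by 1.95 ± 0.43 (adjusted p = 0.0033). *cao-2*, the torulene-cleaving oxygenase, rose by 1.17 ± 0.31 (adjusted p = 0.011). *ylo-1*, the aldehyde dehydrogenase of the last step, was the only member not called (-0.13, adjusted p = 0.31), with medians of 103 RPKM in the high libraries and 113.5 RPKM in the low libraries.

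Of 11 tested light and clock genes 8 rose and 0 fell (median difference 0.51), beside 10.3% and 3.9% of all genes. The 3 not called were *wc-1*, *frq* and *nop-1*. The count of rises was 6 with median centring, 5 with quantile normalization and 2 with groups set by *eas*. The genes lost under both scalings, named after their values were seen, were *wc-2*, a subunit of the White Collar complex (0.30, adjusted p = 0.027), and the photoreceptor gene *vvd* (0.60, adjusted p = 0.042). The blue light-inducible *bli-3* had 68.8 to 2956 RPKM in the high libraries (median 608 RPKM) and 10.3 to 795 RPKM in the low libraries (median 88.8 RPKM), a difference of 2.31 ± 0.47 (adjusted p = 0.0025). *bli-4* rose by 1.83 ± 0.47 (adjusted p = 0.0080). The photolyase *phr* had 9.12 to 408 RPKM in the high libraries (median 40.01 RPKM) and 13.6 to 68.3 RPKM in the low libraries (median 18.6 RPKM), a difference of 1.26 ± 0.33 (adjusted p = 0.010). The cryptochrome *cry* rose by 1.08 ± 0.27 (adjusted p = 0.0070), *sub-1* by 0.51 (adjusted p = 0.023) and the phytochrome *phy-1* by 0.29 (adjusted p = 0.016). With quantile normalization *phy-1* was not called (adjusted p = 0.25). Whether light reached the cultures differently is not given by the labels and was not tested.

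**Figure D4:**
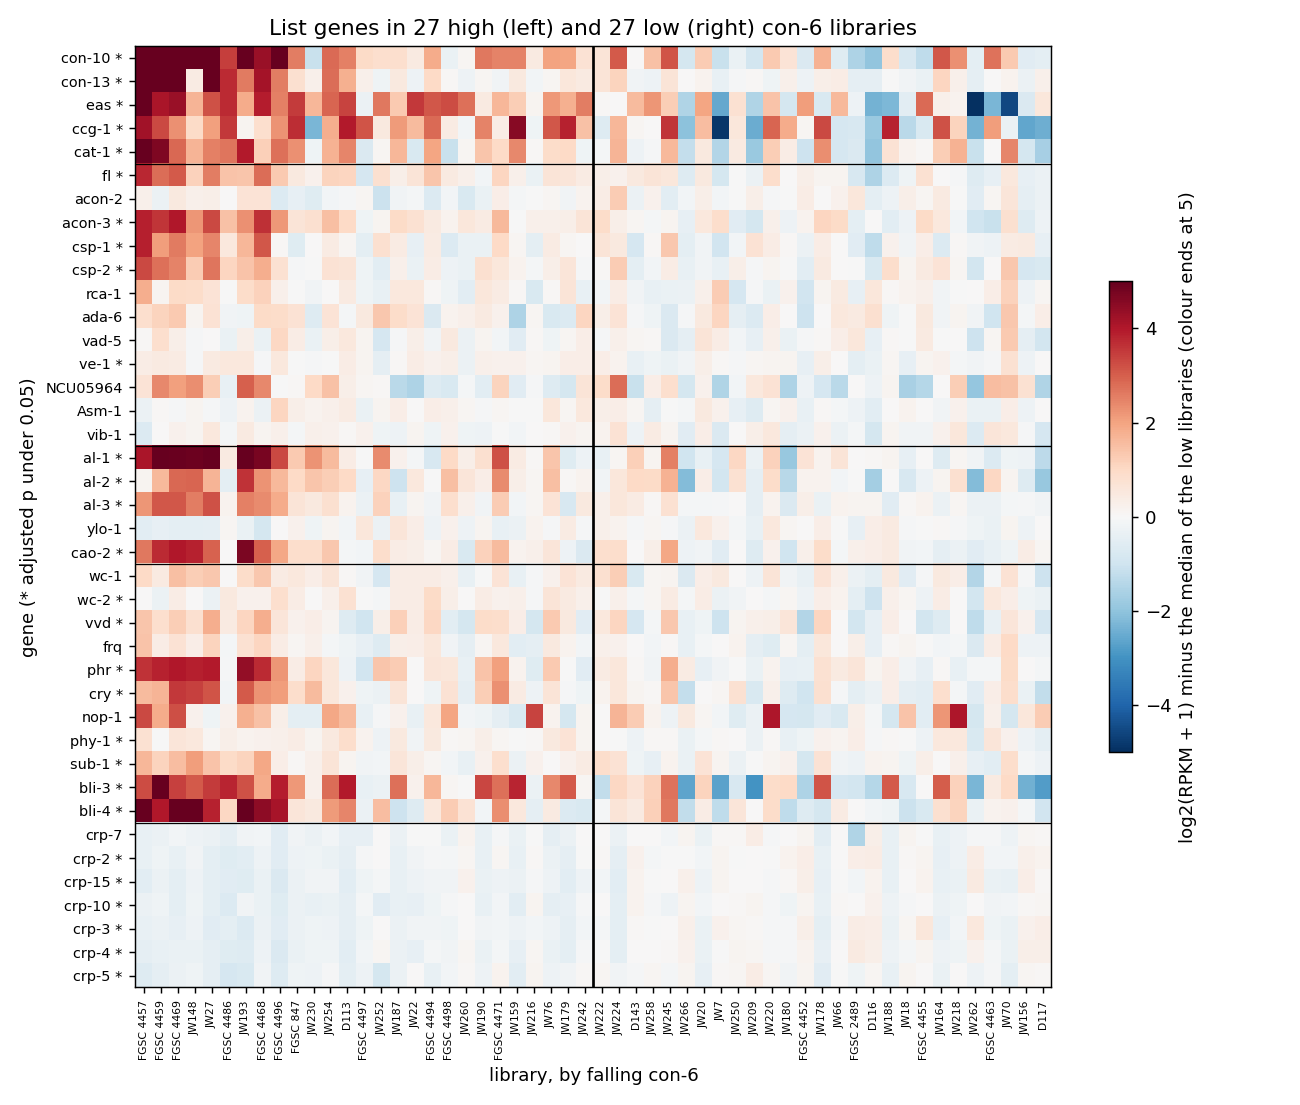
log2(RPKM + 1) of 40 list genes, minus the median of the low libraries, in 27 high (left) and 27 low (right) con-6 libraries, ordered by falling con-6. Asterisks mark an adjusted p under 0.05. Many of the strongest rises lie in the first 9 high libraries. Among these, FGSC 4486 had al-1 at 116.7 RPKM and phr at 18.01 RPKM, but bli-3 at 1254 RPKM. Strong colours also lie elsewhere, as in ccg-1 at 14119 RPKM in JW159 and eas at 35.7 RPKM in the low library JW262.

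The high libraries did not share 1 pattern. Over 8 genes chosen after their values were seen (*eas*, *con-10*, *con-13*, *fl*, *acon-3*, *al-1*, *bli-3* and *phr*), only 4 of 27 high libraries (FGSC 4457, FGSC 4459, FGSC 4469 and JW27) had all 8 above every low library. In all, 8 had 6 or more, 10 had 1 to 5, and 9 had 0. Over all genes, 52.5% had at least 1 high library above every low one, which is a share of genes and not of libraries. The 8 genes thus stood above the low range in some of the high libraries and within it in others. They are not all conidial genes: *bli-3* and *phr* come from the light and clock list and *al-1* from carotenoid synthesis. JW148 and JW193 had high *al-1* (2610 and 2924 RPKM) and *phr* (292 and 408 RPKM), with *con-13* at 0.83 and 7.37 RPKM. FGSC 4486 had *eas* at 19393 RPKM and *con-13* at 17.04 RPKM, with *al-1* at 116.7 RPKM and *phr* at 18.01 RPKM. FGSC 4497 had *con-6* at 738 RPKM, with *eas* at 1168 RPKM and *con-10* at 13.1 RPKM, inside the low range for both.

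Of the 30 list genes called, 29 had a smaller difference without the 7 highest libraries. The exception was *wc-2*, at 0.36 without them and 0.30 with them. These genes had been called with the 7 libraries in, and the differences of all 1133 called genes shrank as well. Their median went from 0.42 to 0.32 in the genes called higher and from -0.30 to -0.22 in those called lower. Only *eas* and the ribosomal protein gene *crp-10* remained called among the list members. *con-10* then differed by 1.33 (adjusted p = 0.13), *al-1* by 1.10 (adjusted p = 0.093), *fl* by 0.68 (adjusted p = 0.081), *bli-3* by 1.82 (adjusted p = 0.081) and *phr* by 0.57 (adjusted p = 0.20). Without the 14 highest, 0 list members were called.

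**Figure D5:**
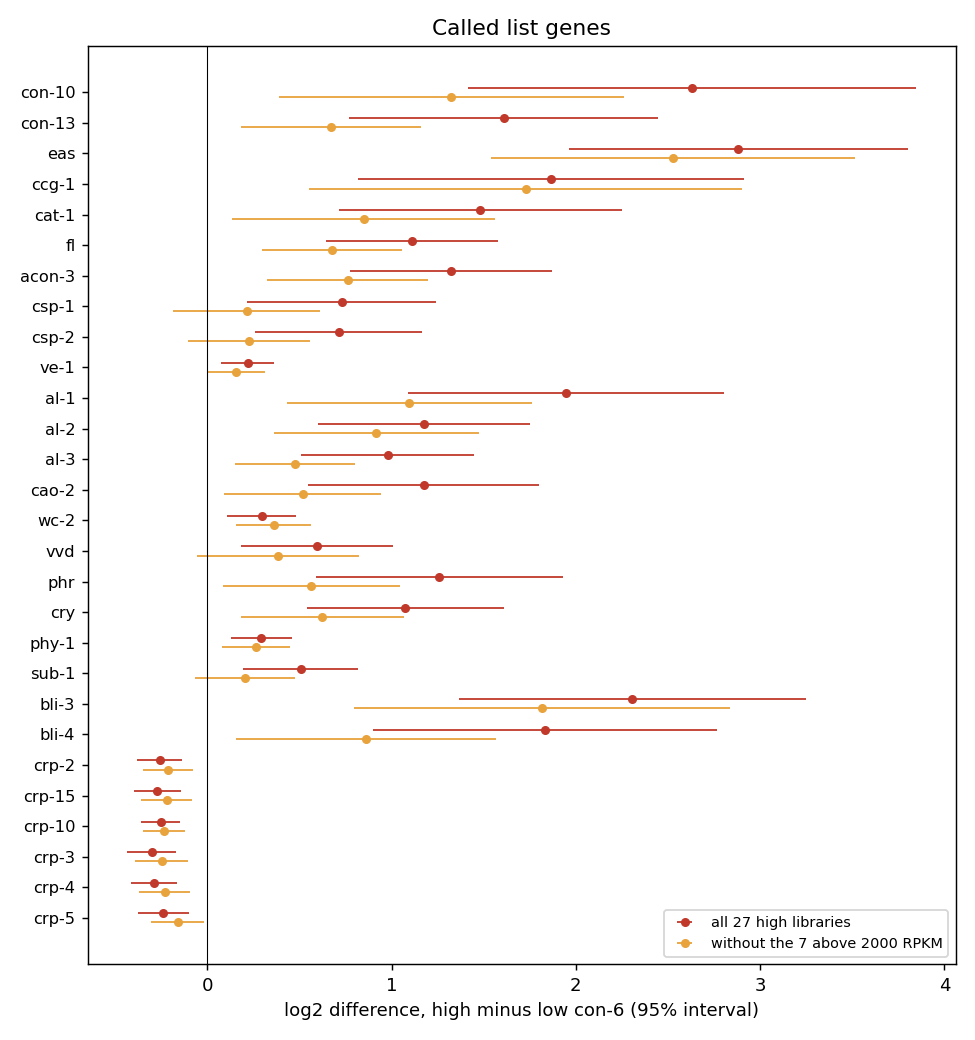
log2 difference, high minus low con-6, with its 95% interval, for the list genes called, with all 27 high libraries (red) and without the 7 above 2000 RPKM of con-6 (orange). The difference in con-10 is 2.63 with all libraries and 1.33 without the 7, and in eas it is 2.88 and 2.53.

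Ribosomal protein genes went the other way. Of 7 named cytoplasmic ribosomal protein genes (*crp-*) 6 fell and 0 rose, beside 3.9% of all genes that fell, with a median difference of -0.26. *crp-3* had 2526 to 4137 RPKM in the high libraries (median 3396 RPKM) and 2891 to 5977 RPKM in the low libraries (median 4037 RPKM), a difference of -0.30 ± 0.07 (adjusted p = 0.0033). The other called members were *crp-2*, *crp-4*, *crp-5*, *crp-10* and *crp-15*, at -0.29 to -0.24. RPKM is a share of the library, and *eas* alone took 0.038% to 3.12% of the reads in the high libraries and 0.0012% to 0.334% in the low libraries. Its part in these falls was not tested. With median centring the 6 calls held, and with quantile normalization 5 of them did. The count of falls was 1 with groups set by *eas* and 1 without the 7 highest libraries. It was 0 in the JW strains alone and 5 in the D and FGSC strains alone.

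Other stress and metabolic lists had few or no calls. The share of all genes that rose was 10.3%, and the next 2 lists had 1 rise each. Of 5 catalase and superoxide dismutase genes 1 rose, the catalase-peroxidase *cat-2* (1.48 ± 0.40, adjusted p = 0.011), with 38.6 to 1680 RPKM in the high libraries and 2.65 to 216 RPKM in the low libraries. *cat-3*, the catalase of growing hyphae, differed by -0.15 (adjusted p = 0.68). Of 6 heat shock genes 1 rose, *hsp98* (0.23, adjusted p = 0.031), which was not called with median centring (adjusted p = 0.15). No gene was called among 5 further clock-controlled genes, a list that leaves out *ccg-1* (-0.61 to 0.07), 5 genes of reserve carbohydrates (-0.13 to 0.37), 5 of sexual development (-0.30 to 0.66), 8 cell wall synthases (0.02 to 0.22), 4 of the glyoxylate cycle and acetate use (-0.20 to 0.58) and 12 of cell fusion (-0.16 to 0.58). With median centring and with quantile normalization 1 gene of sexual development, *T* (tyrosinase), was lower (adjusted p = 0.021 and 0.013), as was 1 of cell fusion, *so* (adjusted p = 0.026 and 0.024). The list members *lae-1*, *mfa-1* and *ham-5* were not analysed here, and *phy-2*, *asd-3*, *pre-2*, *ccg-4* and *per-1* were below the minimum mean.

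Apart from these lists, the 12 largest rises included genes with no name in the gene table: NCU09049 (2.33), NCU01861 (2.33), NCU07434 (2.24), NCU05652 (2.07), NCU06597 (2.04), NCU04266 (1.99) and NCU05844 (1.95). NCU07434 had 11.6 to 481 RPKM in the high libraries (median 49.6 RPKM) and 0.70 to 56.4 RPKM in the low libraries (median 12.9 RPKM). In NCU07434, NCU05652 and NCU05844 the rise was also called without the 7 highest libraries. The minimum mean of 5 RPKM for these names also included the high libraries. NCU09049 and NCU05844 averaged 1.11 and 2.15 RPKM in the low libraries.

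The 12 largest falls were all in genes without a name, and their differences ran from -1.01 to -0.52. NCU05376 had 4.50 to 137 RPKM in the high libraries (median 24.3 RPKM) and 10.6 to 206 RPKM in the low libraries (median 39.4 RPKM), a difference of -1.01 ± 0.32 (adjusted p = 0.028). NCU09497 had 61.035 to 605 RPKM in the high libraries (median 334 RPKM) and 306 to 784 RPKM in the low libraries (median 486 RPKM), a difference of -0.78 ± 0.20 (adjusted p = 0.0081). Its median was 113.99 RPKM in the 7 libraries above 2000 RPKM of *con-6* and 420 RPKM in those under 700 RPKM. The others were NCU09695, NCU04543, NCU09489, NCU07375, NCU03092, NCU11701, NCU02546, NCU04787, NCU02155 and NCU07539. Of the 12, only NCU07539 was called without the 7 highest libraries.

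The 54 libraries in neither group were not part of the test that called the genes above. They did enter the mean of 1 RPKM that set the genes tested, and the ranking by *con-6* that set the groups. With *con-6* as a number in these libraries limma called 0 of 7984 genes (0%), and 1258 had an unadjusted p under 0.05. Of the 1133 genes called between the groups, 961 had a slope of the same sign here. The median slope over all 7984 genes was itself above 0, at 0.06, and 5144 of them had a positive difference between the groups. With median centring 871 of the 1133 had the same sign, and 839 of all genes had an unadjusted p under 0.05 (limma). The share of all genes with the same sign was not counted. For NCU08770 the slope was 0.79 per log2 unit of *con-6* (unadjusted p = 0.0014, adjusted p = 0.11 with limma). Of 7 ribosomal protein genes 6 had an unadjusted p under 0.05, with a median slope of -0.21 over the 7. For *eas* the slope was 1.04 (unadjusted p = 0.039, adjusted p = 0.29 with limma), and it was the only 1 of 5 conidial genes with an unadjusted p under 0.05. The slope was 0.26 for *con-10* (unadjusted p = 0.52), 0.019 for *con-13* (unadjusted p = 0.91) and 0.00097 for *al-1* (unadjusted p = 0.997). The range of *con-6* there was 101 to 345 RPKM, narrower than between the groups.

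By strain series, the nearest thing to a batch in the labels, the JW strains alone (15 against 20) gave 1 call (0.0125%) and the D and FGSC strains alone (12 against 7) gave 484 (6.06%), of which 369 were higher (4.62%) and 115 lower (1.44%). The difference between the series was tested as an interaction, and 0 genes (0%) passed (824 at an unadjusted p under 0.05). The D and FGSC strains held 4 of the 7 libraries above 2000 RPKM of *con-6* and 9 of the 14 above 700 RPKM. *con-10* differed by 4.45 in the D and FGSC strains and by 1.58 in the JW strains, and *eas* by 2.97 and 2.53.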

How the data were processed

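The authors deposited 1 table of RPKM values for 9733 genes in 112 strains. The submitters' processing notes name Bowtie 0.12.2. Which counting tool, build and annotation they used is not given in the sources read. All columns matched a strain, with 0 unused. Whole reads, within 0.001, were recovered from the deposited RPKM for 100% of 9696 genes, and 100% of the lengths were multiples of 3 (coding length). Near-identical columns (4 pairs) were averaged, leaving 54 libraries in the 2 groups and 54 in neither. Genes averaging 1 RPKM or more were compared on log2(RPKM + 1) with limma 3.58.1 (trend) in R 4.3.3, Benjamini-Hochberg at 0.05, and voom on the recovered reads was an alternative (1130 genes called). Permutation tests used 100000 resamples in scipy 1.17.1 (Python 3.11.15).

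Groups, members and lists were chosen with earlier results of these data known. Named genes are *con-6*, *eas*, up to 6 members a list by smallest p, and the 12 largest called rises and falls averaging 5 RPKM or more. Further names were chosen after values were seen. Names come from RefSeq's NC12 table, which matched 8914 of 9733 IDs. Tested on simulated data (27 against 27, 7984 genes, 200 changed), limma recovered 77.5%, 92.5% and 98.5% of log2 changes of 0.5, 1 and 2, with 11, 9 and 9 false calls.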

Additional observations from a re-analysis of the deposited data

Results flagged for a closer look

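Among the 10 D strains, 20 genes were searched for a strain far from the others by Dixon's test, which flags about 1 in 20 groups by chance, and 9 stood out. D113, the only D strain in the high group, stood above the rest in 8 of them. Its level of *con-6* chose it, so the rate by chance does not hold for *con-6* or for genes that go with it. D113 had 830 RPKM of *con-6*, against at most 252 RPKM in the other strains. Because *con-6* also ranked the libraries, this flag is a description only. In the others D113 had 51.5 RPKM of NCU08770 (at most 12.6 RPKM elsewhere), 15184 RPKM of *eas* (at most 6761 RPKM), 40.7 RPKM of *con-10* (at most 11.9 RPKM), 1395 RPKM of *bli-3* (at most 199.99 RPKM), 22.5 RPKM of *bli-4* (at most 7.44 RPKM), 9477 RPKM of *ccg-1* (at most 702 RPKM) and 35.2 RPKM of *cat-1* (at most 7.52 RPKM). D119 stood above the rest in *phr* (33.7 RPKM, at most 22.05 RPKM elsewhere).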

How the results depend on the processing

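Genes were counted as called under each of 22 alternatives. Against 1133 genes, 38 were called without the 7 libraries above 2000 RPKM of *con-6* and 1 without the 14 above 700 RPKM (both chosen after seeing the data, as was leaving out FGSC 4457, 1008). In JW strains alone 1 was called, in D and FGSC strains alone 484, and with *con-6* as a number over all libraries 2459. The cause was not tested. Under the other alternatives 859 to 1304 were called, with 859 when FGSC 2489, JW168, JW5 and JW7 were left out. With 0 calls in the middle libraries and in the interaction between series, every alternative run for those comparisons also gave 0. No paired analysis was possible because each strain had 1 library and strain numbers pair nothing across groups. The groups rest on 1 measured gene, and weak transcripts such as *con-13* (0 reads in 3 low libraries) limit precision.

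Of the named genes, leaving out *wc-1*, *frq* and *nop-1*, which were not followed here, 65 were called and 0 of these changed sign. The 54 changes of sign fell on 20 genes that were not called. With median centring the differences were -0.041 in *gpd-1*, -0.049 in *hsp80* and -0.010 in *mek-2*. In D and FGSC strains alone the differences were -0.042 in *gpd-1*, 0.11 in *tre-1*, 0.17 in *cat-3*, 0.032 in *hsp88*, -0.021 in *hsp80* and -0.050 in *fmf-1*. Without the 14 libraries above 700 RPKM the differences were -0.018 in *gpd-1*, -0.0023 in NCU00793, 0.23 in *gsy-1*, 0.060 in *cat-3*, -0.063 in *hsp80*, -0.10 in *poi-2*, -0.44 in *asd-1*, -0.029 in *chs-6*, -0.010 in NCU05239 and -0.015 in *chs-4*. In JW strains alone the differences were 0.0054 in *ccg-8*, -0.17 in *ccg-9*, 0.081 in *gsy-1*, -0.34 in *asd-1*, -0.0080 in *chs-4* and -0.057 in *ham-6*. With groups of 18 the differences were 0.039 in *ccg-8*, 0.035 in *hsp70-1* and 0.00050 in *hsp88*. With *con-6* as a number the values are slopes per log2 unit of *con-6*, not differences between groups, and were 0.0041 in *ccg-8*, 0.017 in *hsp70-1* and 0.0010 in *acon-2*. With quantile normalization the differences were -0.10 in *ccg-9*, -0.032 in *hsp80*, -0.054 in *fmf-1* and -0.0018 in *mek-2*. With the library total as a covariate the differences were -0.071 in *ccg-9* and -0.00633 in *hsp80*. With groups of 36 the differences were 0.028 in *tre-1*, 0.061 in *gsy-1*, 0.017 in *hsp70-1*, 0.021 in *hsp88* and -0.18 in *asd-1*. With the series as a covariate the difference was 0.045 in *gsy-1*. With array weights the differences were 0.014 in *gsy-1* and -0.0023 in *hsp80*. Without the 7 above 2000 RPKM the differences were 0.13 in *gsy-1*, 0.082 in *cat-3*, 0.0057 in *hsp88* and -0.015 in *hsp80*. Without FGSC 4457 the difference was 0.040 in *gsy-1*. With groups set by *eas* the differences were 0.013 in *hsp70-1*, -0.43 in *acu-3* and -0.036 in *ham-6*. Without FGSC 2489, JW168, JW5 and JW7 the difference was -0.012 in *asd-1*.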

Other observations

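Families of genes with a shared symbol, chosen after their values were seen, were also counted, 17 in all. Over all genes 10.3% were higher in high *con-6* libraries and 3.9% lower, and a count near these shares is no result about a family. Of 13 vacuolar ATPase genes (*vma-*) 6 were higher and 0 lower, at 0.12 to 0.28 for the called members *vma-4*, *vma-5*, *vma-6*, *vma-8*, *vma-9* and *vma-11*. With median centring 0 of these 6 passed, and with quantile normalization 1 did. Of 4 osmosensing genes (*os-*) 3 were higher, and 1 with median centring or quantile normalization, the MAP kinase gene *os-2*, with 204 to 832 RPKM in the high libraries and 147 to 423 RPKM in the low libraries (0.53 ± 0.13, limma, adjusted p = 0.0077).

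Of 6 glycoside hydrolase 18 genes (*gh18-*), a family that includes chitinases, 3 were higher (2 with quantile normalization). *gh18-4* had 0.60 to 296 RPKM in the high libraries and 0.18 to 4.77 RPKM in the low libraries (1.39 ± 0.41, limma, adjusted p = 0.019). Of 20 DNA repair genes (*mus-*) 3 were higher, a share near that of all genes, with *mus-18*, a UV damage endonuclease, at 1.51 ± 0.36 (limma, adjusted p = 0.0051). It had 1.00 to 112 RPKM in the high libraries and 0.59 to 6.95 RPKM in the low libraries. Of 44 kinase genes (*stk-*) 10 were higher, with median centring 4 were higher and 2 lower, and 1 was called without the 7 highest libraries. Lower were 3 of 9 *cyt-* genes, 4 of 9 *un-* genes and 2 of 3 *erg-* genes, the last of ergosterol synthesis. The counts higher and lower were 3 and 0 of 20 for *pex* genes, 1 and 1 of 16 for *tca-*, 1 and 0 of 12 for *rpn-*, 1 and 0 of 7 for *csn-*, 2 and 1 of 6 for *ncw-* and 1 and 1 of 10 for *hsp*. Among genes of complex I (*nuo*, 29), chitin synthases (*chs-*, 5) and *ham-* genes (8), 0 were called. None of the called genes of the *vma-*, *os-*, *gh18-* and *mus-* families was called without the 7 highest libraries.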
